A study of Mus musculus with 48 samples.

Results

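The Msh3+/- genotype in Q140 striatum was examined by setting 8 libraries labelled Q140 Msh3+/- against 8 labelled Q140, 16 of the 48 libraries in the series, chosen by the genotype in their labels. Each group held 4 female and 4 male libraries of the striatum of C57BL/6 mice aged 6 months. Q140 marks mice heterozygous for a knock-in of an expanded CAG repeat in Htt, a model of Huntington's disease, and both groups carry it. The libraries labelled Q140 Msh3+/- have, by that label, 1 altered Msh3 allele. Counts of Msh3 differ with that label, as given below, but cannot show what the altered allele makes. The labels do not describe how the Msh3 allele was made. The other groups, wild type (n = 7), Msh3+/- (n = 9), Msh3-/- (n = 8) and Q140 Msh3-/- (n = 8), entered the fit to estimate the spread and are given beside some results. Each library has its own numbered code in the labels, which do not say what the codes stand for. The p values therefore measure spread between samples, with 1 estimate per gene shared by all 48 libraries. The 16 codes fall under 13 stems: Q140 F1 and F2 share one, Q140 F4 and Q140 Msh3+/- F4 another, and Q140 M4 and Q140 Msh3+/- M4 the last shared one. The fit did not model stems.

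The striatum is built mainly of medium spiny neurons (MSNs), inhibitory neurons that carry either the dopamine receptor Drd1 (the direct pathway) or Drd2 (the indirect pathway). These neurons lose expression of their identity genes early in Huntington's disease and in its mouse models. MSH3 is part of a mismatch repair complex that binds small loops in DNA, and the lengthening of expanded CAG repeats in somatic cells, which is marked in the striatum, depends on it. Repeat length was not measured in these files, so the comparison covers RNA only.

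Levels below are in CPM, a gene's counts divided by the TMM-scaled size of its library and set to a common total. Changes are log2 fold changes of Q140 Msh3+/- over Q140 with a standard error (SE). The SE was worked back from the test, as the size of the log2 change over the square root of its F statistic. "Rose" and "fell" are used for genes with a Benjamini-Hochberg adjusted p under 0.05 in edgeR's quasi-likelihood test over the 19975 genes tested of 48795 in the table. The 16 libraries held 39493810 to 52808289 counts, and the coefficient of biological variation within groups was 10.3%. No libraries held identical columns.

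Choroid plexus RNA was looked at first. Ttr, the transthyretin made in bulk by choroid plexus epithelium, ran from 2.24 to 34.9 CPM in the Q140 libraries and from 5.46 to 41.0 CPM in 7 of the Q140 Msh3+/- libraries. In the remaining one, female replicate 1 (F1), it stood at 3950 CPM. Of the 15 choroid plexus and ependymal markers, 12 were highest in that library, and the ciliated-cell genes Foxj1, Ccdc153 and Tmem212 were not. The summed marker level was 202.1 to 288.5 CPM in Q140, 221.9 to 259.2 CPM in the other 7 Q140 Msh3+/- libraries and 6620 CPM in F1. Kcnj13, Kcne2 and Cldn2 were at 0 in at least 1 of the 16 libraries. The group difference in mean marker level, 0.78 on the log2 scale, had p = 0.29 in an exact two-sided permutation test over 12870 arrangements, and came to 0.15 without F1. Results are therefore given with all libraries and without Q140 Msh3+/- F1.

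**Figure D1:**
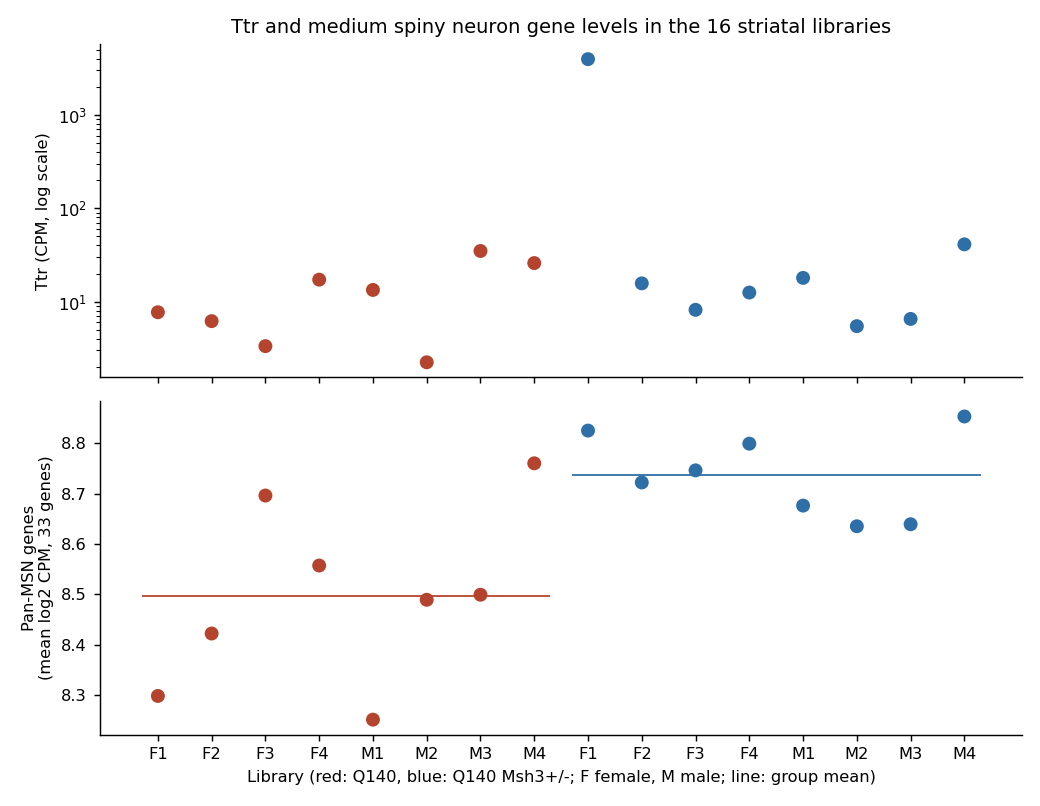
Ttr in CPM on a log axis (top) and the mean log2 CPM of 33 genes of medium spiny neurons (bottom) in each of the 16 libraries, Q140 in red and Q140 Msh3+/- in blue, with group means as lines in the lower panel. Ttr is at 3950 CPM in Q140 Msh3+/- F1 and at 41.0 CPM or less in all others, and the neuronal level of Q140 F3 and M4 lies within the range of the blue group.

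2 Q140 libraries also stood apart from the rest of their group. Among the 395 genes called below, Q140 M4 lay on the Q140 Msh3+/- side (inside that group's range or past its near edge) for 331 genes (83.8%) and Q140 F3 for 260 (65.8%), while the other 6 Q140 libraries did so for 10.6% to 31.4%. Since those genes were chosen on the same libraries, the shares are a description. Msh3 itself was at the Q140 level in every Q140 library, M4 and F3 included.

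Msh3 was the gene targeted, yet more of its reads were counted in libraries labelled Msh3+/- than in those labelled without it. In Q140 libraries Msh3 ran from 29.5 to 33.2 CPM and in Q140 Msh3+/- libraries from 73.0 to 81.8 CPM, so the groups did not overlap. The change was 1.26 (SE 0.04, edgeR adjusted p = 1.76e-30). Counts per gene do not separate exons, so they show that the 2 sets of libraries differ at this locus but cannot show what the altered allele makes. Msh3 lies at chr13:92211872-92355003 (GRCm38, minus strand). In mice without the Q140 allele the Msh3 change was 1.32 (SE 0.04), and the difference between the backgrounds was -0.06 (SE 0.05, edgeR adjusted p = 0.823). Htt, which carries the expanded repeat, differed by 0.14 (SE 0.04, edgeR adjusted p = 0.0529).

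Across all genes 395 passed the test, 1.98% of those tested; 256 rose (1.28%) and 139 fell (0.696%). The median size of a called change was 0.23, and 58 genes changed by more than 1.5-fold. Before adjustment, 3217 genes had a p under 0.05, where 999 would be expected if nothing differed. Without Q140 Msh3+/- F1 the count was 123 genes (0.616%), 83 higher (0.416%) and 40 lower (0.2%), and 120 of them were among the 395. The median change of the genes that rose moved from 0.24 to 0.22 and that of the genes that fell from -0.20 to -0.19. Those genes were chosen on the same libraries, so the medians are a description. Other single libraries also moved the count by over 1.5 times: it was 73 without Q140 F1, 113 without Q140 F2, 91 without Q140 M1, 104 without Q140 Msh3+/- M4, 256 without Q140 Msh3+/- M1, 259 without Q140 F4, 691 without Q140 F3, 755 without Q140 Msh3+/- F4 and 992 without Q140 M4. The share of calls that were higher was 64.8% with TMM scaling and 31.6% when libraries were scaled by their totals alone (229 higher, 495 lower). Fitted on the 16 libraries alone, the test called 4 genes. In that fit the edgeR adjusted p was 0.0904 for Sfmbt2, 0.0714 for Cbx8, 0.11 for Ddit4l and 0.147 for Scn4b. Their changes there were -0.95, -0.55, 0.84 and 0.41. With the plate column of the well as a covariate, the test called 125 genes. The groups compared were spread unevenly over plate columns, so column and genotype label cannot be fully told apart.

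**Figure D2:**
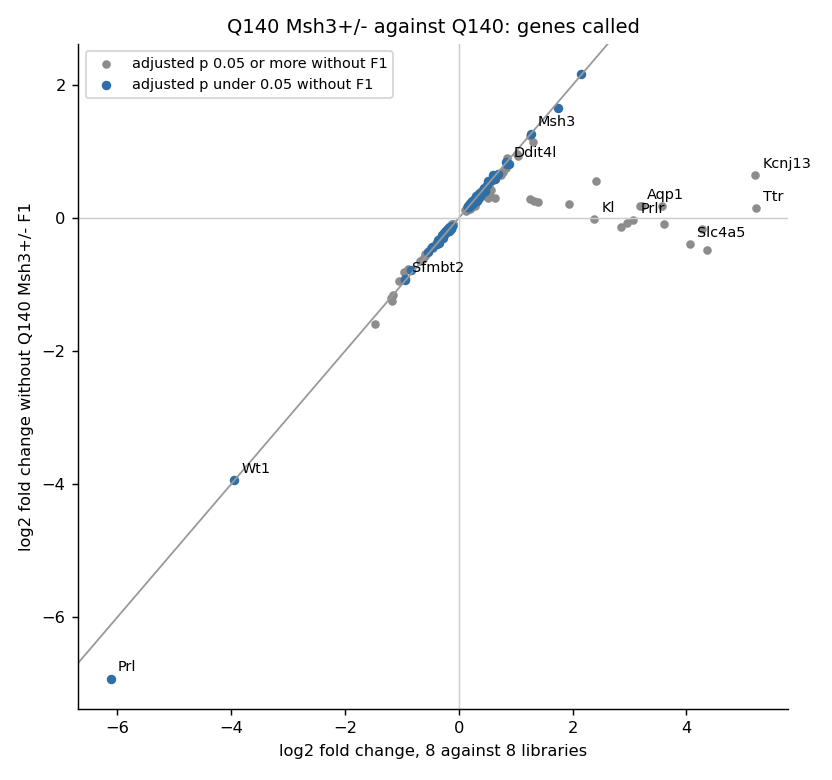
Log2 fold change of the 395 called genes with all 16 libraries (x axis) and without Q140 Msh3+/- F1 (y axis), blue where the gene also passed an adjusted p of 0.05 without F1. Msh3, Wt1, Sfmbt2 and Ddit4l lie on the diagonal, and Ttr, Kcnj13, Kl, Prlr, Slc4a5 and Aqp1 lie far below it, between -0.39 (Slc4a5) and 0.65 (Kcnj13) on the y axis. Prl, at the lower left, is high in 2 Q140 libraries.

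The largest rises were choroid plexus genes high in F1 alone. Ttr (5.22, SE 1.32), Mfrp (4.27), Slc4a5 (4.06), Tmem72 (3.61), F5 (3.23), the prolactin receptor gene Prlr (3.07), the folate receptor gene Folr1 (2.95) and Kl, which encodes klotho (2.38), were among the 12 largest rises at an average log2 CPM of at least 0. Without F1 the changes of Mfrp (-0.17), Slc4a5 (-0.39), Tmem72 (-0.09), Prlr (-0.04), Folr1 (-0.07) and Kl (-0.02) turned below 0. Of the 15 choroid markers 8 rose with F1 and 0 without it. Of 25 genes that rose more than 2-fold, 20 had a change under 1 on the log2 scale without F1. The top of the size ranking rests on that library. In the groups below, counts are given with and without it, and calls lost without it are stated.

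56 genes passed the test in each of the 16 fits that left out 1 library in turn, 37 higher and 19 lower. They were picked after their values were seen. Besides Msh3, the higher ones included genes of MSN signalling (Adcy5, Arpp21, Pde10a, Pde1b, Rgs9, Scn4b, Drd1, Penk) and of calcium and glutamate signalling (Cacna1e, Camk4, Grm5, Grik2), and the lower ones included the Polycomb genes Sfmbt2 and Cbx8. The next paragraphs go through these groups.

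MSN identity genes were higher in Q140 Msh3+/-. Of 33 genes shared by both MSN types, 14 rose and 0 fell, against a background of 1.28% of all genes that rose. Their median change was 0.21 beside -0.01 over all genes tested, and 32 of 33 differences were positive. This list, like the others, was chosen with earlier results of these data known, so its counts are a description. Without F1, 8 of the 33 passed (Adcy5, Ano3, Arpp21, Ddit4l, Pde10a, Pde1b, Rgs9 and Scn4b), with a median of 0.20. The count was 28 without Q140 M4, 7 without Q140 F1, and 8 each without Q140 F2, Q140 M1 and Q140 Msh3+/- M4. It was 7 with the plate column as a covariate and 0 when the 16 libraries were fitted alone. The mean log2 level of the list had an SD of 0.177 in Q140, the widest of all groups. In the other groups the SD was 0.026 to 0.084, and the main test shares its estimate of spread among all groups. In bulk tissue, fewer neurons of a type and less RNA per neuron cannot be told apart.

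Scn4b encodes the sodium channel beta-4 subunit, abundant in MSNs. Its level ran from 749 to 1320 CPM in Q140 and from 1180 to 1530 CPM in Q140 Msh3+/-, a change of 0.41 (SE 0.08, edgeR adjusted p = 0.00533) that was 0.38 without F1. Q140 F3 and M4 lay within the range of the other group, and the other 6 Q140 libraries lay below it. Pde10a, the phosphodiesterase that breaks down cyclic nucleotides in MSNs, ran from 1220 to 2170 CPM and from 1900 to 2400 CPM (0.37, SE 0.07, edgeR adjusted p = 0.00627). Adcy5, the main striatal adenylyl cyclase, ran from 1030 to 1500 CPM and from 1350 to 1740 CPM (0.30, SE 0.06, edgeR adjusted p = 0.00371). For both genes the same 2 Q140 libraries, F3 and M4, overlapped the Q140 Msh3+/- range. Ddit4l, an inhibitor of mTOR signalling that is also on the list of p53 and DNA damage genes, showed the largest change of the 33. It ran from 6.63 to 18.4 CPM in Q140 and from 15.5 to 24.9 CPM in Q140 Msh3+/- (0.84, SE 0.14, edgeR adjusted p = 0.000569, 0.81 without F1).

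Signalling genes around these followed the same pattern of overlap. Rgs9, which speeds the shut-off of G proteins behind dopamine receptors, ran from 513 to 826 CPM and from 723 to 929 CPM (0.31, SE 0.06, edgeR adjusted p = 0.00877). Arpp21, a phosphoprotein regulated by cyclic AMP, rose by 0.31 (SE 0.06) and the calmodulin-dependent phosphodiesterase Pde1b by 0.23 (SE 0.05). Ppp1r1b, which encodes DARPP-32, did not pass the test (0.18, SE 0.05, edgeR adjusted p = 0.0634), nor did the transcription factor gene Bcl11b (0.15, edgeR adjusted p = 0.136). Gpr149 was the list member with a negative difference (-0.15, edgeR adjusted p = 0.544).

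Both MSN types had members that rose, but most markers of either type did not pass. Over all genes tested 1.28% rose. Of 10 markers of D1 neurons, 2 rose: Drd1 ran from 180 to 266 CPM in Q140 and from 237 to 282 CPM in Q140 Msh3+/- (0.24, SE 0.05, edgeR adjusted p = 0.00815), and the muscarinic receptor gene Chrm4 changed by 0.23 (SE 0.06, edgeR adjusted p = 0.0309; 0.0558 without F1). The D1 peptide genes Tac1 (0.05) and Pdyn (0.12) did not pass. Of 8 measured markers of D2 neurons, 1 rose. This was Penk, the enkephalin precursor, at 800 to 1220 CPM in Q140 and 1030 to 1560 CPM in Q140 Msh3+/- (0.39, SE 0.08, edgeR adjusted p = 0.00492, 0.36 without F1). Q140 F3, F4 and M4 lay within the higher range. Drd2 (0.23, SE 0.07, edgeR adjusted p = 0.0521) and the adenosine receptor gene Adora2a (0.25, SE 0.07, edgeR adjusted p = 0.055) missed the threshold. Penk was also the 1 neuropeptide precursor of 14 that rose. Without F1, 1 of 10 D1 markers passed (median 0.05, 7 differences positive). Of the 8 D2 markers 1 passed without F1 (median 0.20, 6 positive), where 0.416% of all genes were called higher.

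**Figure D3:**
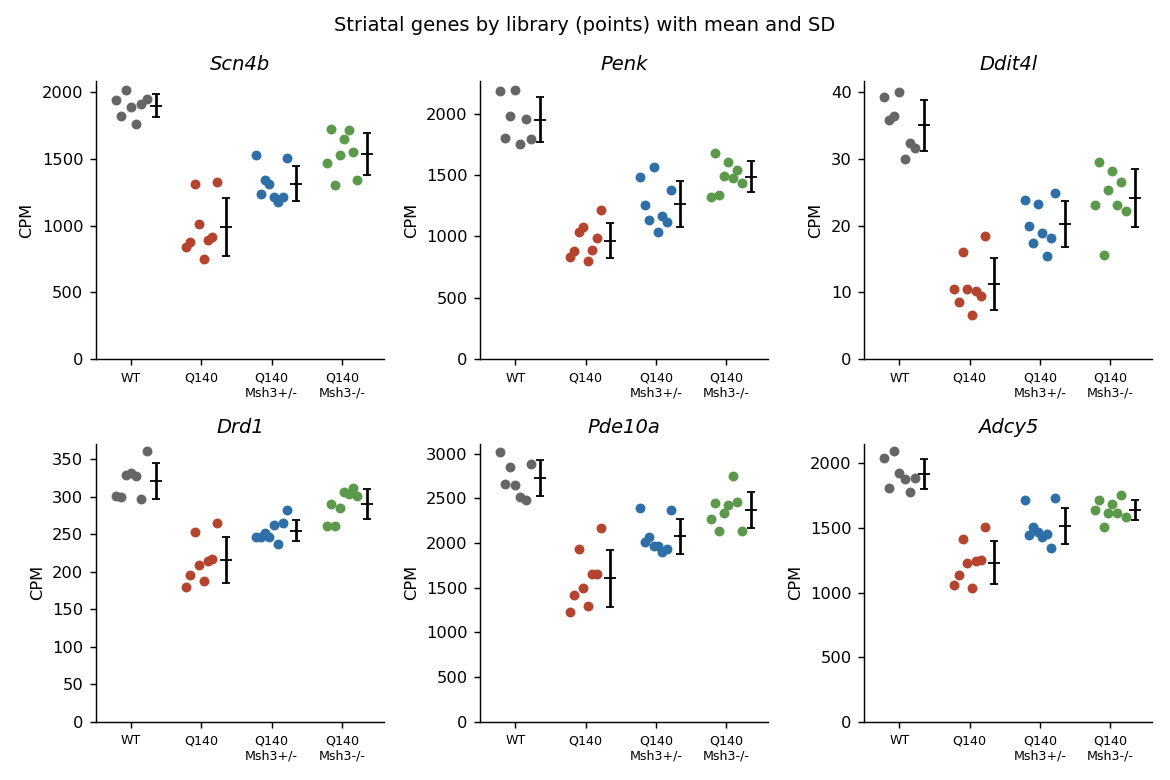
CPM of Scn4b, Penk, Ddit4l, Drd1, Pde10a and Adcy5 in each library (points) of wild type (WT, n = 7), Q140, Q140 Msh3+/- and Q140 Msh3-/- (n = 8 each), with mean and SD beside the points. In each panel the Q140 Msh3+/- mean lies between the Q140 and wild type means, and 2 or 3 Q140 points reach into the Q140 Msh3+/- range.

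Markers of other cells did not pass the test outside the choroid list. Oligodendrocyte genes varied among the Q140 libraries, and also among the wild type and Msh3-/- ones. None of the 16 oligodendrocyte markers was called (median -0.16). The 1 positive difference was Enpp2 (1.08), which is also a choroid plexus gene and stood at 2120 CPM in Q140 Msh3+/- F1. Their mean log2 level was 7.26 in Q140 F1 and 7.12 in Q140 M1, the 2 libraries with the lowest MSN level (8.30 and 8.25), and 6.69 in both Q140 F3 and Q140 M4, the 2 with the highest (8.70 and 8.76). The mean log2 oligodendrocyte level ran from 6.69 to 7.26 in Q140 and from 6.58 to 6.88 in Q140 Msh3+/-. Its SD was 0.221 in Q140, 0.208 in wild type, 0.178 in Msh3-/- and 0.102 to 0.111 in the other groups. Without F1, 0 of 16 differences were positive (median -0.16). The summed oligodendrocyte level ran from 5528 to 8051 CPM in Q140 and from 5255 to 7863 CPM in Q140 Msh3+/-. That sum includes Enpp2, and so its high level in F1. None of the oligodendrocyte markers was at 0, and their part in the MSN result was not tested. Called members were 0 of 16 for astrocyte, 0 of 16 for microglia, 0 of 16 for endothelial and mural, 0 of 12 for septal, pallidal and thalamic, 0 of 13 for cortical neuron, 0 of 8 for cholinergic and 0 of 10 for GABAergic interneuron markers. Of the endothelial and mural markers 14 of 16 differences were positive (median 0.08; 15 of 16 without F1, median 0.10). Their summed level ran from 396.3 to 472.9 CPM in Q140 and from 412.1 to 494.6 CPM in Q140 Msh3+/-, with 0 markers at 0 in any library. Of the septal, pallidal and thalamic markers 3 of 12 differences were positive (median -0.04; 0 of 12 without F1), with sums of 232.0 to 266.0 CPM and 232.9 to 259.8 CPM and 0 markers at 0. The part of these lists in the MSN result was not tested.

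Channel, receptor and calcium genes of neurons rose in part. Over all genes tested 1.28% rose, and 0.416% did without F1. Of 39 potassium channel genes 6 rose and 0 fell (median 0.08): they included Kcna4, Kcnab1, Kcnh4, Kcnq3 and Kcnq5, with changes from 0.16 to 0.29. Without F1, 2 potassium channel genes passed, Kcna4 among them. Kcnab1, Kcnh4 and Kcnj4 are also on the shared MSN list, so the calls of the lists are not separate. Of 36 glutamate and GABA receptor genes 6 rose and 0 fell (median 0.05), and 3 passed without F1, Grik2 and Grm5 among them. Grik2, a kainate receptor subunit, ran from 121 to 163 CPM in Q140 and from 153 to 190 CPM in Q140 Msh3+/- (0.31, SE 0.05, edgeR adjusted p = 0.000569). Grm5, the metabotropic glutamate receptor 5 gene, rose by 0.24 (SE 0.05, edgeR adjusted p = 0.0107).

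Of 24 calcium handling genes 7 rose and 0 fell (median 0.15, 23 of 24 positive), and 4 passed without F1. The shares over all genes were 1.28% and 0.416%. Itpr1, Ryr3 and Camkk2 are also on the shared MSN list. Camk4, a calcium and calmodulin dependent kinase, ran from 445 to 679 CPM in Q140 and from 646 to 797 CPM in Q140 Msh3+/- (0.33, SE 0.06, edgeR adjusted p = 0.00483). Only Q140 F3 reached into the higher range for Camk4. Ryr1, a calcium release channel of the endoplasmic reticulum, had the largest change of the list, with 53 to 141 CPM in Q140 and 102 to 168 CPM in Q140 Msh3+/- (0.69, SE 0.15, edgeR adjusted p = 0.0147, 0.66 without F1). Cacna1e, a voltage-gated calcium channel gene, rose by 0.24 (SE 0.05), and Itpr1, the inositol trisphosphate receptor gene, by 0.37 (SE 0.08), which missed the threshold without F1 (edgeR adjusted p = 0.0526). Of 22 activity-regulated genes, Homer1 alone rose (0.40, SE 0.10, edgeR adjusted p = 0.0352; 0.0557 without F1).

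Polycomb genes were among those that fell. Polycomb complexes keep developmental genes silent: CBX8 is a chromobox subunit that reads trimethylated histone H3, and SFMBT2 is a Polycomb protein with MBT domains. Of 33 Polycomb group genes 3 fell and 0 rose, with and without F1. Over all genes 0.696% fell, and 0.2% did without F1. The list's median was -0.03, and the other 30 members did not pass. That list too was chosen with earlier results of these data known, so the count is a description. Sfmbt2 (chr2:10370510-10595253, plus strand) ran from 4.04 to 11.2 CPM in Q140 and from 2.99 to 5.36 CPM in Q140 Msh3+/-, a change of -0.95 (SE 0.14, edgeR adjusted p = 9.72e-05, -0.92 without F1). Q140 F3 and M4 lay within the lower range. Cbx8 (chr11:119036305-119040969, minus strand) ran from 9.10 to 16.2 CPM and from 7.87 to 9.98 CPM (-0.55, SE 0.08, edgeR adjusted p = 9.72e-05, -0.51 without F1), and Q140 M4 was the single overlapping library.

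Wt1, a zinc finger transcription factor of kidney and gonad development, was the 1 of 18 measured developmental factors that fell. It ran from 0.448 to 2.14 CPM in 7 Q140 libraries, was at 0 in Q140 M4, and ran from 0.0205 to 0.161 CPM in Q140 Msh3+/- (-3.95, SE 0.50, edgeR adjusted p = 4.25e-06, -3.94 without F1). Its range was 0 to 0.167 CPM in wild type. Wt1 passed the count filter through the Q140 group alone, and without any 1 of the 7 Q140 libraries that hold it, it was not tested; with no count filter its adjusted p was 2.01e-05. Among the other falls, Kcng4 (-1.17, SE 0.32), Zbtb7c (-0.63, SE 0.18) and Rprm (-0.59, SE 0.14) missed the threshold without F1 (edgeR adjusted p = 0.0583, 0.0913 and 0.0603). Tmem25 ran from 14.2 to 20.6 CPM in Q140 and from 10.8 to 14.1 CPM in Q140 Msh3+/- without overlap (-0.39, SE 0.07, edgeR adjusted p = 0.00276, -0.39 without F1).

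**Figure D4:**
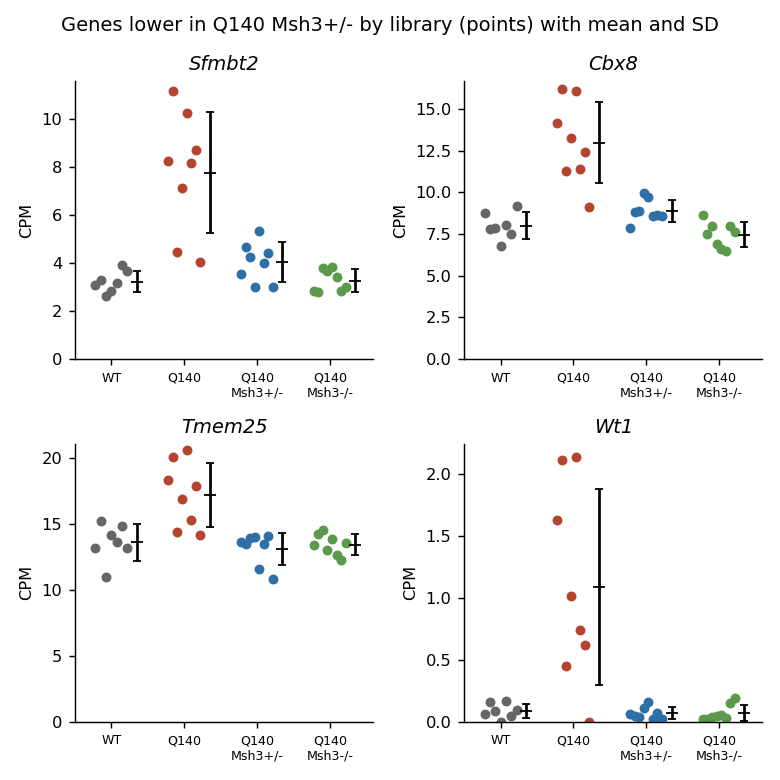
CPM of Sfmbt2, Cbx8, Tmem25 and Wt1 in each library (points) of wild type (WT, n = 7), Q140, Q140 Msh3+/- and Q140 Msh3-/- (n = 8 each), with mean and SD. The Q140 points spread widely, Q140 M4 sits at the bottom of its group in each panel (Wt1 at 0), and the Q140 Msh3+/- points cluster near the wild type ones.

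The stretches before the start sites of 2 genes that fell and 2 that rose are printed to show their CpG content. They are RefSeq promoter windows on GRCm38.p6, 5' to 3' on the gene's strand, cut to the bases upstream of both the RefSeq and the GENCODE start, with each CG pair in capitals. Sfmbt2 is chr2:10370201-10370450 (plus strand), Cbx8 is chr11:119040970-119041163 (minus), Drd1 is chr13:54055706-54055908 (minus) and Adcy5 is chr16:35154614-35154863 (plus).
Sfmbt2: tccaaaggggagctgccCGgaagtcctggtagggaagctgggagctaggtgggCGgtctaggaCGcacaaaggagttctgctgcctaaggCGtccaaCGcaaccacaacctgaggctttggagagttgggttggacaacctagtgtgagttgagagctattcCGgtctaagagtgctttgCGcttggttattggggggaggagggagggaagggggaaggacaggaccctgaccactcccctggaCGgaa
Cbx8: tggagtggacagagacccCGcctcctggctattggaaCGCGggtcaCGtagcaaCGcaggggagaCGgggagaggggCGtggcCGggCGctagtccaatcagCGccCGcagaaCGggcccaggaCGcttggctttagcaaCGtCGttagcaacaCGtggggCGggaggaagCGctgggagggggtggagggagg
Drd1: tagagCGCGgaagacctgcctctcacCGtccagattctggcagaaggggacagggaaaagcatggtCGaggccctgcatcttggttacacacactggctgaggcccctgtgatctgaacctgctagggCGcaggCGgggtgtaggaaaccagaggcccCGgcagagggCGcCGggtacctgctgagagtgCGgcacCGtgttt
Adcy5: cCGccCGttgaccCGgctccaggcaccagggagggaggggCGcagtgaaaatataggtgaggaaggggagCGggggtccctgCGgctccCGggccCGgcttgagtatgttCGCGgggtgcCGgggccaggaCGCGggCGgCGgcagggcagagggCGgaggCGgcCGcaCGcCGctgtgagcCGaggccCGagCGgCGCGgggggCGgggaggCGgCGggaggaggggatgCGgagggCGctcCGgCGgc
The printed stretches hold 8 CG pairs in Sfmbt2, 18 in Cbx8, 11 in Drd1 and 32 in Adcy5. Windows of 250 bases upstream of a RefSeq start were matched for 12375 of the 19975 genes tested, for 176 of the 256 that rose and for 96 of the 139 that fell. They held a median of 15 CG pairs over all genes, 16 in the genes that rose and 12 in those that fell. The cyclic AMP response element TGACGTCA (a palindrome, so both strands are read at once) was in 2.63% of all windows, in 3 of 176 (1.70%) of the genes that rose and in 6 of 96 (6.25%) of those that fell. Cbx8 was one of these, with its match in the part that GENCODE places inside the gene. The EGR motif GCGNGGGCG, on either strand, was in 8.49% of all windows, 11.4% of the genes that rose and 8.33% of those that fell. Among genes called also without F1, TGACGTCA was in 1 of 28 windows of fallen genes (3.57%) and 1 of 53 of risen genes (1.89%), and the EGR motif in 7.14% and 17.0%. These matches are letters in a window and were not tested.

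Other lists had few or no called members. Of 21 beta protocadherin genes 1 fell (Pcdhb9, -0.23, SE 0.06, edgeR adjusted p = 0.037; 0.112 without F1), and 2 of 21 differences were positive (median -0.12). Mvk was the 1 of 24 cholesterol synthesis genes that fell (-0.19, SE 0.05, edgeR adjusted p = 0.0444; 0.0654 without F1). Among 23 mismatch repair and repeat stability genes only Msh3 was called, and among 23 p53 and DNA damage genes only Ddit4l. None of 35 nuclear-encoded respiratory, 13 mitochondrially encoded, 22 heat shock or 25 interferon-response genes passed, with medians of -0.04, -0.02, 0.03 and -0.19.

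**Figure D5:**
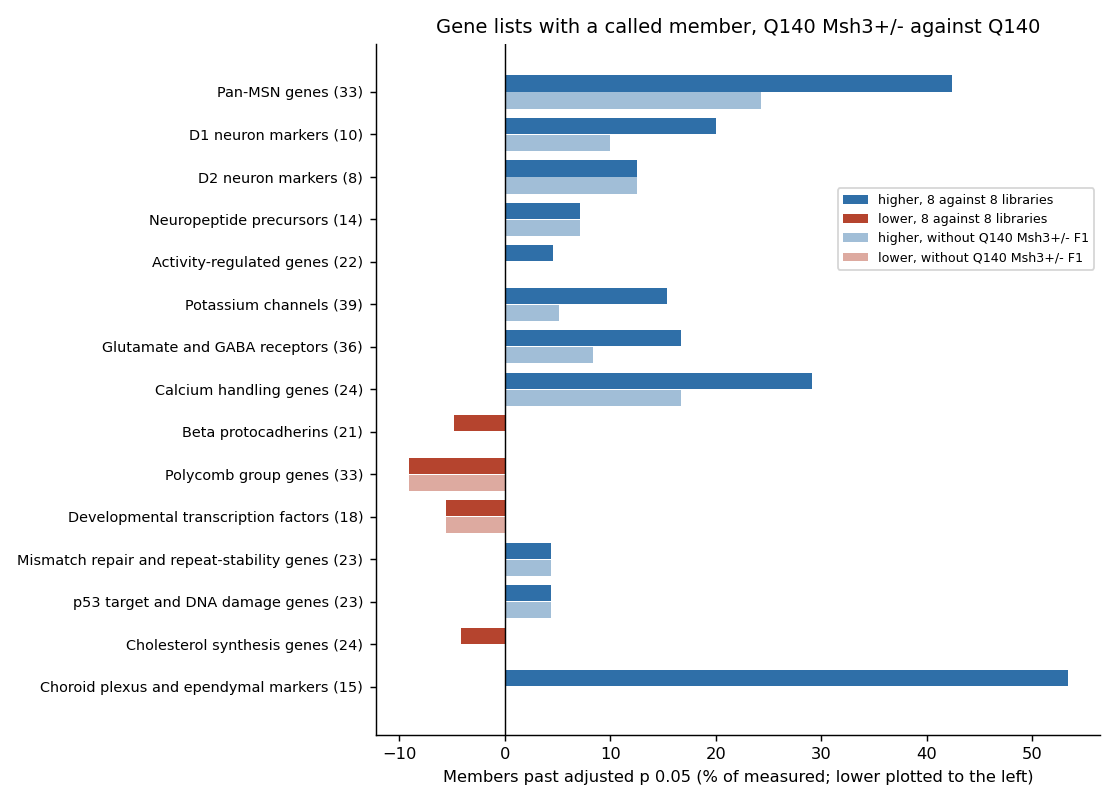
Share of measured members past an adjusted p of 0.05 in each list with at least 1 called member (number measured in brackets), higher to the right in blue and lower to the left in red, with all 16 libraries (dark) and without Q140 Msh3+/- F1 (pale). The choroid plexus list goes from 8 of 15 to 0, the shared MSN list from 14 to 8 of 33, and the Polycomb list stays at 3 of 33.

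Genes near Msh3 on its chromosome were looked at apart. Within 10 Mb of Msh3, 5 of the 116 other genes tested were called (4.31%, beside 1.98% of all genes): Homer1, Enc1 and F2r rose and Wdr41 and AW495222 fell. F2r, the thrombin receptor gene, 3.25 Mb away, ran from 3.04 to 5.07 CPM in Q140 and from 5.10 to 6.11 CPM in Q140 Msh3+/- without overlap (0.35, SE 0.10, edgeR adjusted p = 0.0465; 0.0585 without F1). It also rose in Msh3+/- against wild type mice (0.57, edgeR adjusted p = 0.0123), where it and Msh3 were the 2 genes called (0.01%). AW495222, 1.35 Mb away, ran from 2.29 to 3.49 CPM and from 1.15 to 1.85 CPM without overlap (-0.84, SE 0.16, edgeR adjusted p = 0.00348, -0.79 without F1). Over all genes, 20 (0.1%) had groups that did not overlap, 5 higher (0.025%) and 15 lower (0.0751%).

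Set beside the other groups, the Q140 Msh3+/- means of Scn4b, Penk and Sfmbt2 lay between those of Q140 and wild type. These comparisons share libraries with the main one, so their values are given side by side only. Scn4b averaged 1900 ± 85.2 CPM in wild type (SD, n = 7), 990.4 ± 215 in the Q140 group, 1317 ± 134 in libraries labelled Q140 Msh3+/- and 1536 ± 160 in those labelled Q140 Msh3-/- (SD, n = 8 each). Penk averaged 1952 ± 183, 964.7 ± 142, 1266 ± 189 and 1486 ± 124 CPM in the same order, and Sfmbt2 3.23 ± 0.447, 7.79 ± 2.52, 4.04 ± 0.826 and 3.28 ± 0.46 CPM. For Sfmbt2 and Scn4b, Q140 F3 and M4 lay within the Q140 Msh3+/- range.

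Of the 33 shared MSN genes, 31 fell and 1 rose in Q140 against wild type, where 19.9% of all genes were called (10.2% lower, 9.64% higher). In Q140 Msh3+/- against wild type 19 fell and 2 rose, where 3.77% were called (2.23% lower, 1.54% higher). In Q140 Msh3-/- against Q140, 31 rose and 0 fell, where 11.9% of all genes were called (6.85% higher, 5.04% lower). Of the Polycomb genes, 7 rose and 4 fell in Q140 against wild type and 0 passed in Q140 Msh3+/- against wild type. Sfmbt2 stood at 0.33 (SE 0.15, edgeR adjusted p = 0.243) and Cbx8 at 0.15 (edgeR adjusted p = 0.4) in the last of these.

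Whether the change needs the Q140 allele was tested as a difference between backgrounds, (Q140 Msh3+/- minus Q140) minus (Msh3+/- minus wild type). In edgeR 0 genes passed (0% of those tested), with 1621 at an unadjusted p under 0.05 and 999 expected; DESeq2 called 19. The difference was 0.39 (SE 0.11, edgeR adjusted p = 0.409) for Scn4b, 0.86 (SE 0.19, edgeR adjusted p = 0.113) for Ddit4l and -0.52 (SE 0.12, edgeR adjusted p = 0.113) for Cbx8. Without Q140 M4 the count was 24. In Msh3+/- against wild type, edgeR called 2 genes, Msh3 and F2r, with 943 at an unadjusted p under 0.05 and 999 expected. The changes described are not shown to be limited to Q140 mice, and of them Msh3 and F2r alone were called without Q140.

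The step from Msh3+/- to Msh3-/- labels was set against the step to Msh3+/-. Q140 Msh3-/- against Q140 Msh3+/- gave 3 called genes (0.015%), Msh3 (0.70), Cmya5 (-0.51) and AW495222 (-1.18). The test of the difference between these steps called 10 genes (0.0501%), Msh3 (-0.56, SE 0.06, edgeR adjusted p = 3.05e-07) and 9 choroid plexus genes, and 1 (Msh3) without Q140 Msh3+/- F1. For Scn4b the later step was 0.22 (SE 0.08) beside 0.41 for the first, with a difference of -0.19 (SE 0.14, edgeR adjusted p = 1). In the comparison with no library in common with the main one, Q140 Msh3-/- against Msh3-/-, 15 genes passed (0.0751%; 0.0501% higher, 0.025% lower), and 5 of these were also called here: Penk (-0.42), Ddit4l (-0.61), Pde1b (-0.22) and Ankrd35 (-0.38) fell there, and Vill rose (0.48).

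Sex was balanced, and the change was also tested within each. In females 67 genes passed (0.335%; 0.26% higher, 0.0751% lower) and in males 1, Msh3 (0.00501%), with 4 libraries a side. The difference between the sexes gave 0 called genes, 764 at an unadjusted p under 0.05 and 0 by DESeq2, so no sex difference was detectable. Females include F1. Scn4b changed by 0.42 in females and 0.40 in males, Penk by 0.51 and 0.27, Sfmbt2 by -1.01 and -0.89 and Drd1 by 0.24 in both. The sexes gave the same direction for each of these genes.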

How the data were processed

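RNA was extracted from mouse striatum with RNeasy kits and made into TruSeq stranded libraries, per the labels' protocols. The authors deposited whole-number read counts per gene. The submitters' processing notes name STAR 2.7.5c, SAMtools 1.10 and HTSeq 0.12.3 and the build GRCm38/mm10; the annotation release and the strand setting are not given in the sources used here, so reads of a gene and an overlapping antisense gene may not be separable.

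From the counts, genes were kept with edgeR's filterByExpr (minimum count 10, minimum total 15): 19975 of 48795, and those left out held 0.0383% of all counts. Libraries were scaled by TMM, and edgeR 4.0.16 (R 4.3.3, limma 3.58.1) fitted all 48 libraries by genotype with sex as a covariate, so that the groups share 1 estimate of the spread; tests are two-sided quasi-likelihood tests with Benjamini-Hochberg adjustment over all genes tested. The script was tested on simulated data. Depth was 39493810 to 52808289 counts per library in the 16 compared, and intervals or floors would cover counting error only.

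Genes named are Msh3, Htt, the called genes whose average log2 CPM was 0 or more with the 12 largest rises and 12 largest falls, up to 4 called genes per list in order of p, up to 4 by smallest p in each test of a difference, and called genes within 10 Mb of Msh3. From these, those that matter are given; other genes, and the choice of libraries and genes said to stand apart, came after values were seen. The members, the 29 gene lists and the rules were chosen with earlier results of these data known. Coordinates are from GENCODE M21 (GRCm38), and promoter sequences from RefSeq (GRCm38.p6). Alternatives tried were RLE scaling, library totals, DESeq2 1.42.0, other count filters, no sex term, only the groups compared, a replicate block, plate column and row, Ttr as a covariate and leaving out each library. Replicate numbers were checked for pairing: same-number correlations ran from -0.072 to 0.186, so not every pair passed 0.1 and the numbers were not taken to pair the samples. The highest, F4 (0.186) and M4 (0.18), are the 2 pairs that share a code stem across the groups. Some genes counted in the lists are not reported by name here.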

Additional observations from a re-analysis of the deposited data

Results flagged for a closer look

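Single libraries far from the rest of their group were looked for in both groups of 8, over 29 gene lists and 83 genes. Of 224 groups tested, 25 held such a library, and chance gives about 1 in 20 groups (11.2). Of the 25, 16 were in Q140 Msh3+/- F1, and the genes include the 12 largest rises, many of them large through that library, so the total is no test. The other 9 were fewer than chance gives.

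Most were choroid plexus genes of Q140 Msh3+/- F1. In that library the mean log2 level of the choroid plexus and ependymal markers was 5.495. Ttr stood at 3951.6 CPM, Enpp2 at 2121.5 CPM, Igf2 at 236.17 CPM, Kl at 178.22 CPM and F5 at 115.11 CPM. Igfbp2 stood at 60.818 CPM, Tmem72 at 58.266 CPM, Prlr at 56.14 CPM, Mfrp at 54.332 CPM and Slc4a5 at 43.189 CPM. Slc13a4 stood at 34.981 CPM, Kcnj13 at 32.025 CPM, Col8a1 at 25.965 CPM, Folr1 at 24.816 CPM and Aqp1 at 17.735 CPM.

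The other libraries far from their group were scattered. In Q140 M4, Wt1 was at 0 CPM and Zfp7 at 4.8738 CPM. In Q140 M2 the mean log2 level of the activity-regulated genes was 3.529, the lowest of its group. Tcf7l2 stood at 11.896 CPM in Q140 M1, Aqp1 at 0.024888 CPM in Q140 F3 and Col8a1 at 0.33056 CPM in Q140 F4. Among Q140 Msh3+/- libraries, F2 had an interferon-response level of 1.799, and F4 had a cholinergic interneuron level of 3.833 and Htt at 177.24 CPM.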

How the results depend on the processing

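The count of changed genes depended on the setting. From 395 (256 higher, 139 lower) it became 724 with library totals (495 lower), 649 with DESeq2 (444 higher), 211 with no count filter (141 higher, 70 lower), 125 with plate column (92 and 33), 167 with Ttr as a covariate (101 and 66), 123 without the library that stood apart in choroid markers (83 and 40), and 4 with only the groups compared (1 and 3). Leaving out 1 library gave 73 to 992 changed genes, 42 to 648 higher and 31 to 344 lower. With the replicate block the count was 343. Same-number correlations ran from -0.072 to 0.186, with 5 of 8 libraries matching their own number best. These values do not settle whether replicate numbers pair the samples. The difference between Q140 and other mice went from 0 genes to 19 with DESeq2 and to 0 to 24 without 1 library. The difference between allele steps went from 10 genes to 21 with DESeq2 and with no sex term and 4 with at least 1 CPM in at least 8 libraries. It fell to 1 with only those groups, the replicate block, plate column, plate row, Ttr as a covariate or without Q140 Msh3+/- F1, and leaving out 1 library gave 1 to 29. Shared MSN genes that rose went from 14 to 0 with only the groups compared, 7 with plate column, 8 without Q140 Msh3+/- F1 and 7 to 28 without 1 library. The choroid difference went from 0.784 to 0.152 without F1. Signs turned for Mfrp (-0.056 with Ttr as a covariate, -0.17 without F1), Slc4a5 (-0.201 and -0.393), and without F1 for Tmem72 (-0.089), Prlr (-0.036), Folr1 (-0.073) and Kl (-0.02); the highest values without 1 library were 4.596 (Mfrp), 4.522 (Slc4a5), 3.908 (Tmem72), 3.326 (Prlr), 3.182 (Folr1) and 2.601 (Kl). Except for what leaving out F1 or other libraries shows, the cause was not tested.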

Other observations

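Pituitary hormone genes marked 2 Q140 libraries, F1 and F2, whose codes share a stem. Prl, which encodes prolactin, passed the test with the largest negative change of all called genes (-6.12, SE 1.40, edgeR adjusted p = 0.0167). It rested on Q140 F2 at 14.3 CPM (664 counts) and Q140 F1 at 2.14 CPM (101 counts), with 5 counts or fewer in each of the other 14 libraries. Gh, the growth hormone gene, stood at 6.87 CPM in Q140 F2 and 1.12 CPM in Q140 F1 and at 0.349 CPM or less elsewhere. Pomc, the precursor of corticotropin, was at 2.74 CPM in Q140 F2 and at 0.803 CPM or less in the others.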
